A study of Rattus norvegicus with 24 samples.

Results

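Slc17a9, P2ry4 and Slc6a4 are genes of ATP and serotonin transmission, and they were followed here across strain and side in the carotid bodies (CBs) of hypertensive and normotensive rats. They are 3 of the 32623 genes in the count matrix, found by the Ensembl identifiers that the study's table of strain differences pairs with these symbols. They were chosen by their difference between the strains in these libraries, so that difference is given as a description, with no test. The left and right CBs of 6 male Wistar Kyoto rats (WKY/NHsd) and 6 male spontaneously hypertensive rats (SHR/NHsd) made 1 library each, so 12 rats gave 24 libraries. The labels put the rats at 12 to 14 weeks of age. The labels name no transgene and no agent for any rat, and all were perfused with buffered saline through the heart before the CBs were dissected. The inbred SH rat develops high blood pressure with age, and the WKY rat is its usual normotensive comparison. A difference between these strains therefore covers every allele at which they differ as well as blood pressure.

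The CB is a small organ at the fork of the carotid artery that senses blood oxygen, carbon dioxide and pH. Its glomus cells release transmitters onto the endings of the carotid sinus nerve, and ATP is the main excitatory signal among them. ATP is loaded into vesicles by the vesicular nucleotide transporter, the product of Slc17a9. After release it acts on ionotropic P2X receptors of the nerve ending and on G protein-coupled P2Y receptors, of which P2ry4 encodes one that answers to UTP and, in rodents, also to ATP. Ectonucleotidases on the cell surface break ATP down to adenosine, which acts on its own receptors. Serotonin is a further signal of glomus cells, and the transporter encoded by Slc6a4 takes it back up from outside the cell. Slc6a4 also serves platelets and serotonergic neurons.

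The P2ry4 promoter is shown because the CB is an oxygen sensor and the core of the hypoxia response element is a short, searchable motif. In RefSeq GRCr8 the window from 250 bases before to 50 bases after the P2ry4 start is chrX:69728477-69728776 on the minus strand. It is written 5′ to 3′, with the hypoxia response core in capitals.

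P2ry4 promoter: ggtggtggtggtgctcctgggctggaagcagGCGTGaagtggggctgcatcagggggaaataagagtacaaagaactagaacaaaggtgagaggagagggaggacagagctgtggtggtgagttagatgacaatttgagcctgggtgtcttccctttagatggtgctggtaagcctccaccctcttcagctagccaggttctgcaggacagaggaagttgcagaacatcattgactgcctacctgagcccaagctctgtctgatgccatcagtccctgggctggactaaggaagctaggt

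The letters ACGTG and GCGTG were searched on both strands, and the window held 1 match, GCGTG, which starts at base 32. At least 1 match was present in 13937 of 33469 rat promoters of this length (41.6%), so a match is common. It is a description of these letters and not a binding site. Slc17a9 and Slc6a4 had no entry in the promoter table.

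Each library held 9198341 to 13655419 counts (median 9818602.5), so 1 CPM (counts scaled to a common depth, with the trimmed mean of M-values, TMM) corresponds to about 10 counts. The right CB of SH rat 34 stood apart: thyroglobulin (Tg), the thyroid hormone precursor, was at 7849 CPM there, against 215 CPM on the right of SH rat 30 and at most 28.9 CPM elsewhere. Its glomus cell markers were low, and it has no column in the study's table. It was therefore left out of the main set of 23 libraries (12 from WKY and 11 from SH rats), and its values are given separately. The markers of the tissue that could be paired with an identifier (Chga, Chgb, Dbh and Ret) were detected in each of the 23 libraries, with a summed level of 926 to 1411 CPM in WKY and 1170 to 2048 CPM in SH rats.

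Slc17a9 (ENSRNOG00000010275) was expressed at a low level in every library. In the left CBs of WKY rats 32, 33, 34, 36, 37 and 41 it was at 4.04, 1.72, 2.93, 3.30, 4.52 and 1.69 CPM, and in their right CBs at 1.59, 2.53, 2.68, 1.87, 2.44 and 2.50 CPM. In SH rats 30, 31, 33, 34, 36 and 37 the left CBs were at 2.82, 5.36, 5.44, 4.47, 5.59 and 4.89 CPM, and the right CBs, without rat 34, at 4.41, 5.31, 4.65, 5.56 and 5.60 CPM. The SHR values thus lay close together apart from the left CB of rat 30, while the left CBs of WKY rats spread widely. Averaged over the sides of a rat, Slc17a9 was at 2.65 ± 0.516 CPM in WKY and 4.88 ± 0.726 CPM in SH rats (SD, n = 6 rats each), a ratio of 1.84. The log2 fold change of SHR over WKY was 0.89 (SE 0.171, edgeR). Here and for the other genes, this fit takes the CBs of a rat as separate samples. Its SE therefore counts libraries and not rats. All 6 SH rats were above every WKY rat. By library the groups overlapped, with 8 of 11 SHR libraries above every WKY library. For 0.926% of tested genes every SHR library was above every WKY library. Across all tested genes, every SH rat was above every WKY rat for 3.39%; since the strain difference led to the choice of these genes, nothing is read from that comparison.

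P2ry4 (ENSRNOG00000002953) was also low, and its coefficient of variation was the highest of the genes in 3 of the 4 groups of strain and side. In the left CBs of WKY rats 32, 33, 34, 36, 37 and 41 it was at 1.31, 4.04, 0.976, 1.84, 1.54 and 1.86 CPM, and in their right CBs at 2.78, 2.84, 2.58, 1.21, 1.95 and 1.78 CPM. In SH rats 30, 31, 33, 34, 36 and 37 the left CBs were at 2.09, 3.47, 2.21, 2.46, 3.48 and 3.53 CPM, and the right CBs, without rat 34, at 4.61, 2.98, 3.13, 2.62 and 5.39 CPM. WKY rat 33 was the highest of its strain on both sides, and its left CB exceeded 9 of the 11 SHR libraries. The rat means were 2.06 ± 0.697 CPM in WKY and 3.20 ± 0.701 CPM in SH rats (SD, n = 6 rats each), a ratio of 1.55. The log2 fold change was 0.67 (SE 0.208, edgeR). The strains overlapped: WKY rat 33 averaged 3.44 CPM, above 5 of the 6 SH rats. The other 5 WKY rats, at 1.53 to 2.05 CPM, were below all 6 SH rats, whose lowest was at 2.46 CPM. Without WKY rat 33 the log2 fold change was 0.89, and without SH rat 37, the highest of its strain, it was 0.55.

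Slc6a4 (ENSRNOG00000003476) rested on more counts, 158 to 607 per library in the main set. In the left CBs of WKY rats 32, 33, 34, 36, 37 and 41 it was at 15.9, 24.8, 33.4, 26.3, 25.7 and 28.1 CPM, and in their right CBs at 31.1, 26.8, 32.9, 18.8, 30.8 and 28.7 CPM. In SH rats 30, 31, 33, 34, 36 and 37 the left CBs were at 30.9, 52.4, 33.8, 61.3, 47.9 and 48.7 CPM, and the right CBs, without rat 34, at 40.6, 34.02, 39.1, 44.8 and 40.0 CPM. Only the left CB of SH rat 30 fell inside the WKY range, and the other 10 of 11 SHR libraries were above every WKY library. The rat means were 26.9 ± 3.87 CPM in WKY and 44.6 ± 9.27 CPM in SH rats (SD, n = 6 rats each), a ratio of 1.65. The log2 fold change was 0.67 (SE 0.119, edgeR). All 6 SH rats were above every WKY rat, and the highest SHR mean belonged to rat 34, which is represented by its left CB alone. Such a separation of the rats was seen for 3.39% of all genes tested. Nothing is read from it here, since the strain difference led to the choice of Slc6a4.

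**Figure D1:**
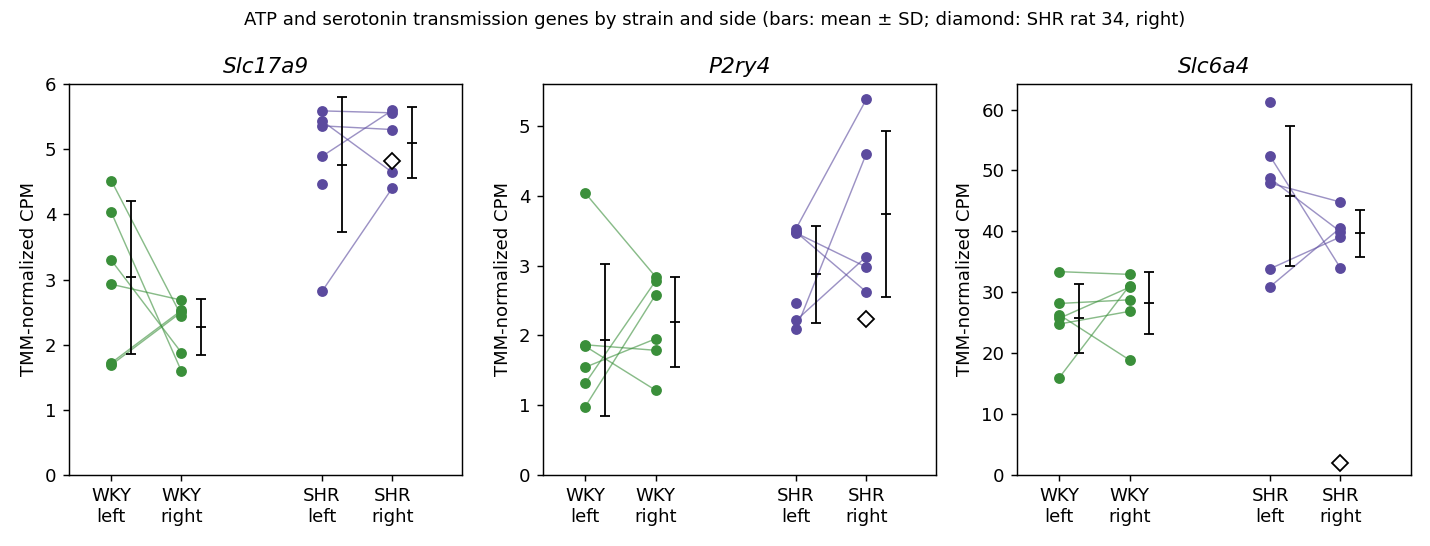
TMM-normalized CPM (vertical axes, starting at 0) of Slc17a9, P2ry4 and Slc6a4 in each library, by strain and side. Filled points are libraries, lines join the CBs of a rat, and bars are the mean ± SD of each group (n = 6, or 5 for the right CBs of SH rats). The open diamond is the right CB of SH rat 34, which is near the other SHR libraries for Slc17a9 and far below all libraries for Slc6a4 (1.98 CPM).

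The precision behind these values differed between the genes. For Slc17a9, counts per library ran from 16 to 44 in WKY and from 27 to 73 in SHR, and counting error alone gives a coefficient of variation of 13.5% to 21.0% in the groups of strain and side. The observed coefficient of variation was 10.7% in the right CBs of SH rats and 19.1% in the right CBs of WKY rats, both under the counting value, and 38.6% in the left CBs of WKY rats, where counting gives 18.1%. For P2ry4, with 10 to 50 counts per library, the observed values of 24.0% to 56.4% were all above the 15.9% to 22.5% from counting. For Slc6a4 counting gives at most 6.16%, and the observed values were 9.74% to 25.1%, so the spread between libraries and not the depth set its precision. Intervals from counting cover counting error only. In GRCr8 the gene models of Slc17a9, P2ry4 and Slc6a4 overlap those of Gid8, Arr3 and a long noncoding RNA, respectively, and whether the authors counted by strand is not given in the sources used here, so reads from the overlaps may be shared.

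The same strain difference was then taken from each side alone. These are the libraries whose difference led to the choice of the genes, so the values describe how it was made up and do not repeat it. For Slc17a9 the log2 fold change was 0.65 in the left CBs (SE 0.267, 95% interval 0.09 to 1.21) and 1.16 in the right CBs (SE 0.197, interval 0.74 to 1.58). For P2ry4 it was 0.57 in the left (SE 0.321, interval -0.10 to 1.24) and 0.76 in the right (SE 0.272, interval 0.18 to 1.33). For Slc6a4 the order was the other way, with 0.83 in the left (SE 0.180, interval 0.45 to 1.22) and 0.48 in the right (SE 0.122, interval 0.22 to 0.74). Of all genes, 8.93% passed between the strains in the left CBs alone and 5.88% in the right CBs alone, and nothing is read from these shares for the 3 genes. The estimate was higher in SHR on each side for each gene, the left interval of P2ry4 reached below 0, and the intervals of the sides overlapped.

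**Figure D2:**
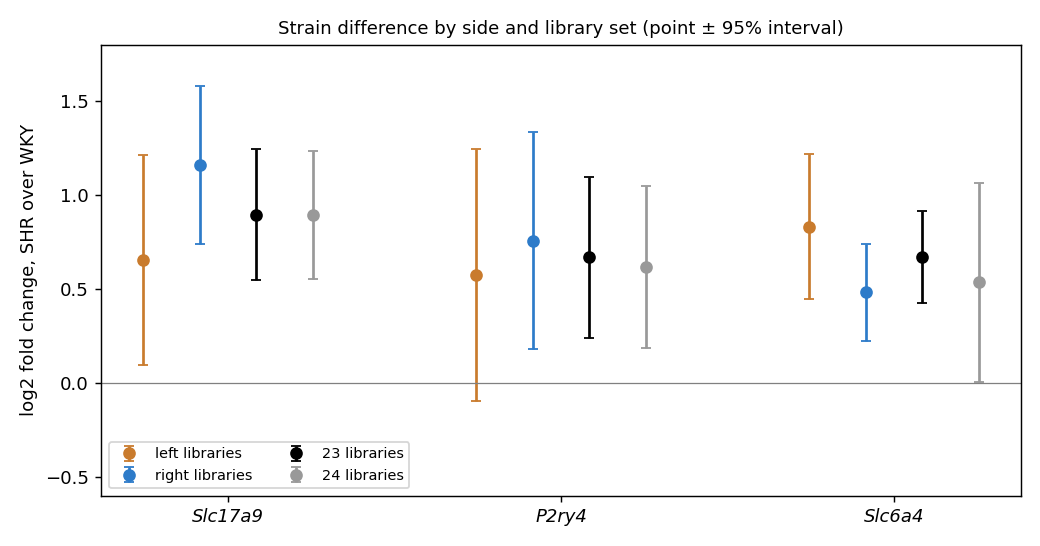
Log2 fold change of SHR over WKY (vertical axis) for each gene in the left libraries, the right libraries, the 23 libraries of the main set and all 24 libraries. Points are edgeR estimates and bars their 95% intervals. The fits of 23 and 24 libraries take the CBs of a rat as separate samples. The interval of Slc6a4 widens to 0.01 to 1.07 when the right CB of SH rat 34 is added.

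Whether the side matters was not used to choose the genes and could be tested. Right was compared with left within each strain, and the difference of these differences was tested as an interaction, by the quasi-likelihood test of edgeR, adjusted over all genes after Benjamini and Hochberg. These fits took the left and right CBs of a rat as separate samples, so they are unpaired. In WKY rats Slc17a9 was lower on the right by a log2 fold change of -0.41 (SE 0.272, 95% interval -0.99 to 0.16, edgeR adjusted p = 0.9997), which did not pass. Within the rats, the right CB had more Slc17a9 in 2 of 6 WKY rats, with a difference in log2 CPM from -1.29 in rat 32 to 0.54 in rat 41. In SH rats the log2 fold change of Slc17a9 was 0.09 (SE 0.207, interval -0.34 to 0.53, edgeR adjusted p = 0.963), and the right CB was higher in 2 of 5 rats.

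P2ry4 had a log2 fold change of right over left of 0.18 in WKY (SE 0.331, interval -0.52 to 0.88) and 0.37 in SH rats (SE 0.266, interval -0.19 to 0.92, edgeR adjusted p = 0.869). Its right CB was higher in 3 of 6 WKY rats and in 3 of 5 SH rats, and single rats differed by up to 1.32 in log2 CPM. Slc6a4 had 0.13 in WKY (SE 0.155, interval -0.20 to 0.46) and -0.21 in SH rats (SE 0.150, interval -0.53 to 0.10, edgeR adjusted p = 0.868). Its right CB was higher in 4 of 6 WKY rats and in 2 of 5 SH rats. In these unpaired fits the genes therefore showed no difference between the sides beyond the spread of the libraries. The intervals leave room for a change of about 1 on the log2 scale for Slc17a9 and P2ry4 and of about 0.5 for Slc6a4. With the rat as a block none of the genes passed either, and the lowest edgeR adjusted p was 0.816, for P2ry4 in SH rats.

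The interaction of strain and side was 0.51 for Slc17a9 (SE 0.335, interval -0.18 to 1.20), 0.19 for P2ry4 (SE 0.425, interval -0.68 to 1.06) and -0.34 for Slc6a4 (SE 0.232, interval -0.82 to 0.13), each with an edgeR adjusted p of 0.999. The background is the same: 0 genes (0%) passed between the sides in WKY, in SHR or as an interaction by edgeR, and 0 by DESeq2. At an unadjusted p under 0.05, edgeR gave 284 genes in WKY, 781 in SHR and 438 for the interaction. With the rat as a block, edgeR called 1 gene in SHR, ENSRNOG00000057880, which has no symbol here and is named after its values were seen.

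The levels of Slc17a9, P2ry4 and Slc6a4 were at most weakly correlated from library to library within the groups. After the group means were taken out, Pearson's r of log2 CPM over the 23 libraries was -0.21 between Slc17a9 and P2ry4, 0.05 between Slc17a9 and Slc6a4 and 0.29 between P2ry4 and Slc6a4. The libraries share rats in pairs and differ in depth, and these values are a description. With 10 to 73 counts per library for Slc17a9 and P2ry4, counting error lowers r. A low r therefore cannot show that the levels vary apart. Among the genes with a symbol, those most like Slc17a9 were LOC500877 (r = 0.70), Plcd4 (0.68), which encodes a phospholipase C, and the chemokine receptor gene Ccr1 (0.65). For P2ry4 they were Napsa (0.60), an aspartic protease gene, Fat3 (0.59), a cadherin gene, and LOC691083 (0.56). For Slc6a4 they were Tmem51 (0.63), Tpbgl (0.62) and the cytokine gene Il17d (0.62). The highest r of any of 14257 other genes was 0.74, 0.73 and 0.78, respectively, so none of these genes stands apart by its likeness. With the glomus cell markers Chga, Chgb, Dbh and Ret, r was 0.22, 0.41, -0.02 and 0.21 for Slc6a4, 0.23, 0.29, 0.29 and 0.27 for Slc17a9, and 0.05, 0.28, -0.10 and 0.04 for P2ry4. Among the paired markers of all cell types, the highest r was 0.58 for Slc6a4 (macrophage marker C1qb), 0.51 for Slc17a9 (mast cell marker Mcpt1l1) and 0.28 for P2ry4 (Chgb). The lowest was -0.63 for Slc6a4 (Pmp2), -0.43 for Slc17a9 (smooth muscle marker Acta2) and -0.29 for P2ry4 (Pmp2). With Slc17a9, the other paired mast cell markers had r of 0.19 (Cpa3) and -0.34 (Cma1). With Slc6a4, the paired macrophage markers ran from -0.02 (Lyve1) to 0.58. No cell type is read from these values.

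Of the wider purinergic system, 34 further genes were listed and 6 could be paired with an identifier. The others were not analysed here. Only a part of the study's table, which gives the symbols, was read here, and that part holds only genes higher in SHR. The direction of the paired genes is therefore set by that part and is no result. The study also reported genes lower in SHR, such as Glp1r, and such genes were not paired here. Of all 14258 genes tested by edgeR between the strains, 20.1% passed in either direction and 10.2% were higher in SHR. Of the 1273 genes with a symbol, 64.2% were called higher and the median log2 fold change was 0.41. Of the 6 paired purinergic genes 3 passed (Adora2b, Entpd3 and Alpl), all higher in SHR, and 0 were lower; 3 of 6 is not above the 64.2%. As they entered through that part of the table, their own values are given without a p. Their median log2 fold change was 0.43 (0.37 to 1.03), near that of the genes with a symbol and above the 0.01 of all genes tested. Over all 24 libraries, where 10.4% of genes passed, 1 of the 6 still passed (Entpd3), and Adora2b and Alpl did not. The fit takes the CBs of a rat as separate samples; with counts summed per rat, 3 of the 6 passed, beside 13.5% of all genes.

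Among the receptors, P2rx1, an ATP-gated cation channel of smooth muscle and platelets, was at 6.39 ± 2.44 CPM in WKY and 8.64 ± 2.31 CPM in SH rats (SD, n = 6 rats each). Its log2 fold change was 0.47 (SE 0.233), and the strains overlapped. Adora2b, a low-affinity adenosine receptor, was at 4.17 ± 0.558 CPM in WKY and 5.77 ± 0.836 CPM in SH rats (log2 fold change 0.45, SE 0.127). The rat means of Adora2b overlapped too, at 3.45 to 4.85 CPM in WKY and 4.68 to 6.75 CPM in SHR.

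Among the enzymes that act on extracellular nucleotides, Entpd3, a membrane ectonucleotidase that removes phosphates from ATP and ADP, had the largest log2 fold change of the 6. It was at 4.70 ± 1.86 CPM in WKY and 9.32 ± 1.81 CPM in SH rats (log2 fold change 1.03, SE 0.190). Its rats overlapped at the edge, with 1 SH rat at 5.81 CPM below the highest WKY rat at 7.22 CPM. Alpl, tissue-nonspecific alkaline phosphatase, which can dephosphorylate nucleotides down to adenosine, was at 76.5 ± 10.95 CPM in WKY and 100.2 ± 7.93 CPM in SH rats (log2 fold change 0.39, SE 0.0813). The lowest SH rat had 93.2 CPM of Alpl and the highest WKY rat 88.0 CPM, so the rat means did not overlap. Every SH rat was above every WKY rat for 3.39% of all genes tested. As Alpl was paired from a set of genes higher in SHR, nothing is read from its separation. Enpp3, a nucleotide pyrophosphatase, had a log2 fold change of 0.37 (SE 0.138), and Entpd7, an intracellular nucleotidase, 0.42 (SE 0.231).

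Of 25 further serotonin genes, 1 could be paired with an identifier, the receptor gene Htr6. It was at 1.58 ± 0.494 CPM in WKY and 1.87 ± 0.375 CPM in SH rats (SD, n = 6 rats each), and its log2 fold change was 0.36 (SE 0.257) and did not pass. The synthesis, storage and breakdown of serotonin were therefore not covered here apart from its reuptake by the product of Slc6a4.

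**Figure D3:**
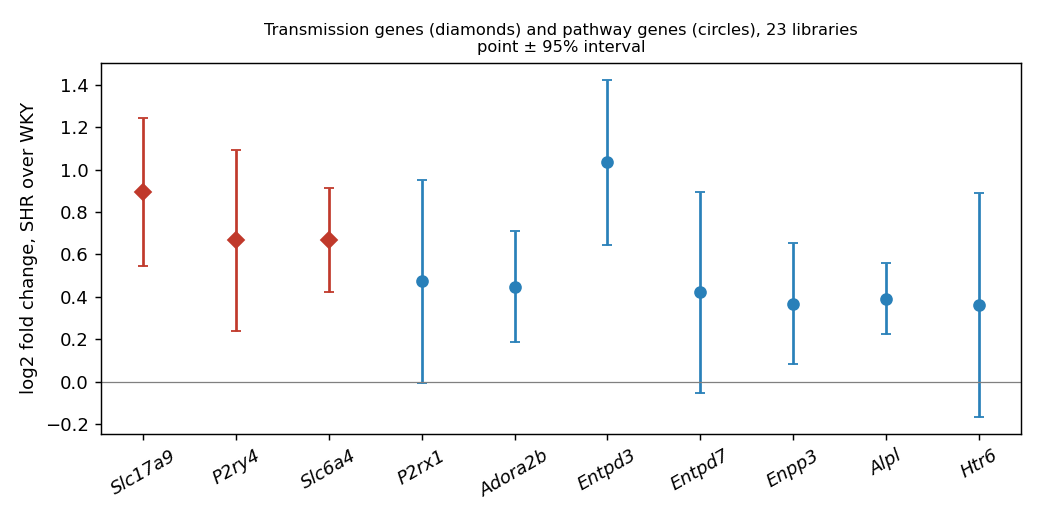
Log2 fold change of SHR over WKY (vertical axis) in the 23 libraries for Slc17a9, P2ry4 and Slc6a4 (diamonds) and the 7 pathway genes with an identifier (circles). Bars are 95% intervals from a fit that takes the CBs of a rat as separate samples, and Entpd3 lies highest at 1.03. All symbols come from the part of the study's table read here, which holds only genes higher in SHR. The direction of these genes is therefore a description.

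Markers of several cell types differed between the strains as well, with the same limit. Every gene with a symbol comes from the part of the study's table read here, which holds only genes higher in SHR. Of the 30 paired markers 24 passed, beside 64.2% of all genes with a symbol, and nothing is read from the counts that follow. All 4 paired glomus cell markers of 13 listed passed (median log2 fold change 0.55), and 1 did with all 24 libraries. The 3 paired mast cell markers of 9 listed (Cpa3, Cma1 and Mcpt1l1) passed (median log2 fold change 2.18), with a summed level of 1.43 to 3.71 CPM in WKY and 3.69 to 25.0 CPM in SHR. Cpa3 and Cma1 were at 0 in 1 WKY library each. The platelet marker Pf4, the only paired one of 6, passed (0.73), at 1.19 to 5.07 CPM in WKY and 3.78 to 8.94 CPM in SHR. All 7 paired macrophage markers of 9 passed, 4 of them with counts summed per rat, with a summed level of 107 to 175 CPM in WKY and 147 to 291 CPM in SHR. Of the other markers, 3 of 3 endothelial, 2 of 2 neuronal, 1 of 4 smooth muscle, 2 of 4 adipocyte, 0 of 1 sustentacular and 1 of 1 thyroid markers passed. The part of these cells in the levels of Slc17a9, P2ry4 and Slc6a4 was not tested, and in whole organs more cells of a type and more RNA per cell cannot be told apart.

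The right CB of SH rat 34 was not used to choose the genes, and there the genes differed from each other. To compare it, all 24 libraries were scaled together. Slc17a9 had 39 counts there, or 4.83 CPM, beside 4.43 CPM in the left CB of the same rat, and it lay within the range of the other 11 SHR libraries (2.79 to 5.52 CPM, median 5.23). P2ry4 had 18 counts, or 2.23 CPM, beside 2.44 CPM on the left, and it lay within the range of the other SHR libraries (2.06 to 5.31 CPM, median 3.09) and also within that of the WKY libraries (0.967 to 4.01 CPM). It was below the lowest SH rat mean of the main set (2.46 CPM). These places rest on few counts and on the TMM scaling of this library. Before scaling, the 18 counts of P2ry4 came from a total of 10450867. The left CB of SH rat 30, the lowest other SHR library, had 20 counts from 9721855, a larger share. The place of P2ry4 within the SHR range thus held only after scaling.

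Slc6a4, by contrast, had 16 counts, or 1.98 CPM, beside 549 counts and 60.9 CPM in the left CB of the same rat. This was the lowest of all 24 libraries and 20.2-fold below the median of the other SHR libraries (40.0 CPM). The WKY libraries had 15.9 to 33.1 CPM. In this library 28.7% of 14276 genes were below the other 23 libraries and 37.7% were within the range of the other 11 SHR libraries. The glomus cell markers were low in the same library: Chga was 14.5-fold, Dbh 17.03-fold, Chgb 172-fold and Ret 3.73-fold below the median of the other SHR libraries. The summed level of the 4 markers was 77.0 CPM, against 1170 CPM or more in the other SHR libraries of the main set. Peripherin (Prph), a neuronal intermediate filament, was at 20.9 CPM against a median of 349 CPM. The low levels were not limited to these cell types. The endothelial markers Sox18, Acvrl1 and Notch4 were at 20.1%, 36.1% and 42.4% of the median of the other SHR libraries. Smooth muscle markers ran from 28.3% (Acta2) to 84.3% (Tpm2). The platelet marker Pf4 was at 86.1%, and macrophage markers ran from 54.2% (Mrc1) to 164% (Cd163).

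The pathway genes varied likewise in that library. Entpd3 was at 0.866 CPM, which is 9.16% of the median of the other SHR libraries, P2rx1 at 14.0%, Alpl at 19.9% and Adora2b at 32.2%. Entpd7 had 3 counts. Htr6 had 0 counts, and with the 3 counts that a count of 0 allows in this library it was at least 4.97-fold lower than that median. Enpp3 was the exception at 79.7 CPM, 173% of the median. The mast cell markers were high there, with a summed level of 35.5 CPM, as was Pmp2, a myelin protein gene (71.3 CPM against a median of 2.65). Of the 4 adipocyte markers, Fabp4 (385 CPM against 10.98) and Adipoq (6.31 against 1.44) were high, and Cfd (41.7% of the median) and Lpl (76.5%) were not. After TMM scaling, Slc17a9 and P2ry4 were thus within the range of the other SHR libraries. This library had low glomus cell, neuronal and endothelial markers. P2ry4 was at a level that WKY libraries also had, and Slc6a4 was below both strains. The source of the Slc17a9 and P2ry4 reads there was not tested, and it is 1 library without a replicate.

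**Figure D4:**
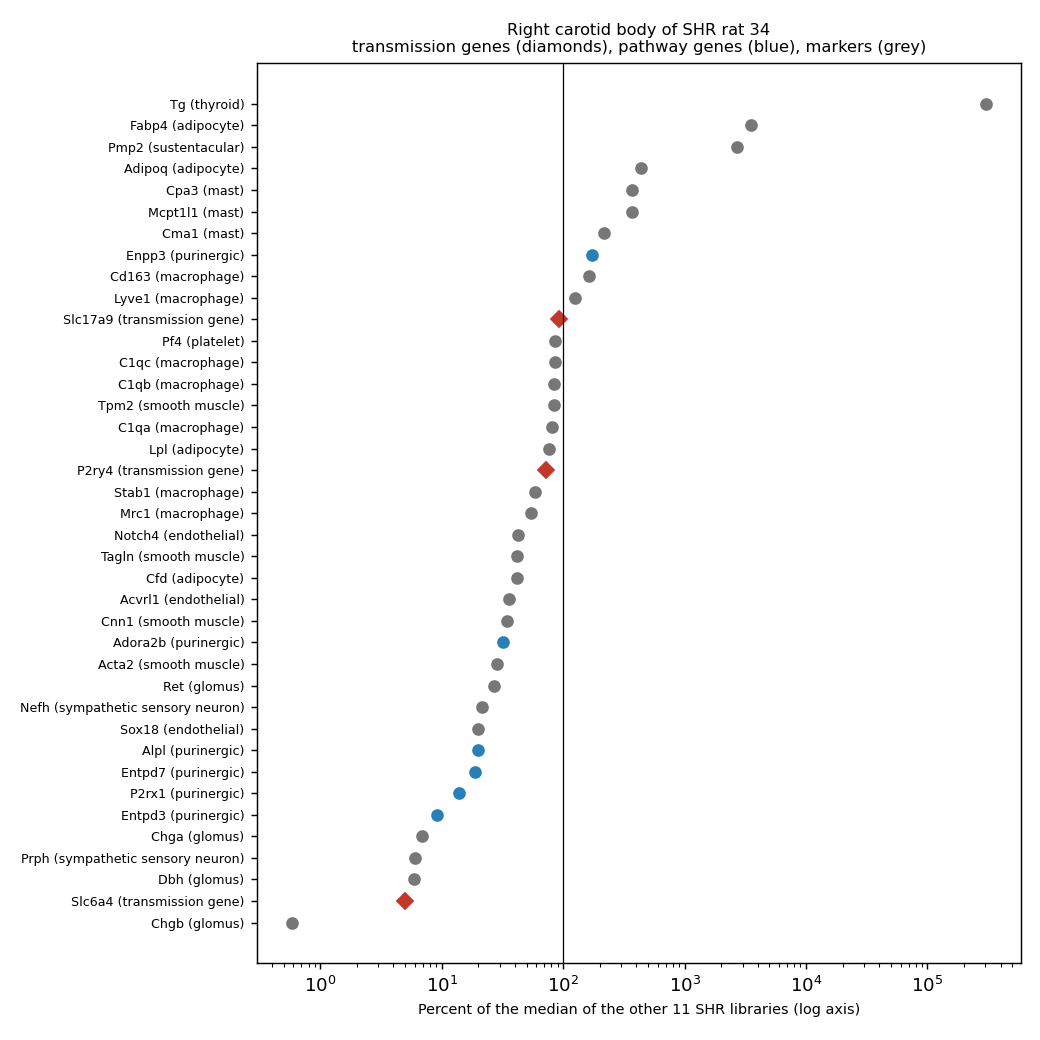
Level in the right CB of SH rat 34 as a percent of the median of the other 11 SHR libraries (horizontal log axis), for Slc17a9, P2ry4 and Slc6a4 (diamonds), pathway genes (blue) and cell type markers (grey), 1 point per gene. Slc17a9 lies at 92.3% and P2ry4 at 72.1%. Slc6a4 (4.95%) lies near the bottom with Chgb, Dbh, Chga and the neuronal marker Prph, while the glomus cell marker Ret lies at 26.8%. Htr6, with 0 counts, is not drawn.

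Adding this library to the fit of the strain difference moved Slc6a4 most. Over all 24 libraries the log2 fold change was 0.90 for Slc17a9 (SE 0.165), 0.62 for P2ry4 (SE 0.209) and 0.54 for Slc6a4 (SE 0.256). The SE of Slc6a4 was 0.119 without it. The library of SH rat 30 with 215 CPM of Tg had 4.41 CPM of Slc17a9, 4.61 CPM of P2ry4 and 40.6 CPM of Slc6a4, each within the range of the other SHR libraries.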

How the data were processed

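Polyadenylated RNA of single CBs was made into stranded libraries. The counts deposited by the authors are raw reads per gene, from STAR alignments and featureCounts; versions, genome build, annotation, strand and multi-mapping settings are not given in the sources used here. Only a part of the study's table was read here, 1391 rows, of which 1273 hold a symbol. All 1273 are higher in SHR, and the fold changes and p-values of the table were not used. The 3 genes, all lists and tests were chosen with earlier results of these data known. The genes named are the 3 genes, the pathway genes and markers with an identifier, and for each of the 3 the 3 genes with a symbol and the highest r.

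Counts were analysed in R 4.3.3 with edgeR 4.0.16 (TMM, robust quasi-likelihood F-test, two-sided, Benjamini-Hochberg at 0.05, mean normalized count above 10, side as covariate between the strains). DESeq2 1.42.0 and limma 3.58.1 (voom, rat as random block) were alternatives, with those in the closing section. The tests were run on simulated counts without a rat effect, so that check does not cover the sharing of rats by the libraries. CPM used log2 with a prior count of 1 for correlations, and rat means averaged the sides. Depth was 9198341 to 13655419 counts per library. No pair of libraries agreed within sampling noise (lowest chi-square per degree of freedom 5.18 over 253 pairs). By the labels, left and right of one number come from one rat. The correlation of their deviations was weak, at -0.03 to 0.25 (median 0.12, n = 11 rats). Figures were drawn with matplotlib.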

Additional observations from a re-analysis of the deposited data

Results flagged for a closer look

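Values here are CPM with all 24 libraries scaled together. In the groups of strain and side (n = 6), 10 genes gave 40 groups, of which about 2 would be picked out by chance. P2ry4 in the left CB of WKY rat 33 was far above its group, at 4.01 CPM against 1.84 for the next and 0.967 for the lowest library. Slc6a4 in the right CB of SH rat 34 was far below its group, at 1.98 CPM against 33.8 for the next. Alpl was far below its group in the same library, at 19.4 CPM against 89.7 for the next, and in the right CB of WKY rat 34, at 45.2 CPM against 72.6 for the next. The comparisons of the strains do not use the right CB of SH rat 34. Slc17a9 was at 4.83 CPM there, above the highest WKY library at 4.47 CPM. That order rests on few counts and on the TMM scaling of this library. Before scaling, its 39 counts of Slc17a9 came from a total of 10450867. The left CB of WKY rat 37 had 44 counts from 9795388, a larger share. Slc17a9 was thus above every WKY library only after scaling, and nothing is read from that order. Enpp3 was at 79.7 CPM there, above the highest WKY library at 54.6 CPM.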

How the results depend on the processing

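Across all genes, 2863 passed between the strains, 1483 with all 24 libraries, 1270 in the left CBs alone, 838 in the right CBs alone and 2193 to 2831 without 1 rat. The log2 fold changes of the 3 genes, given as a description, were 0.83 to 0.98 for Slc17a9, 0.55 (without SH rat 37) to 0.89 (without WKY rat 33) for P2ry4 and 0.61 to 0.74 for Slc6a4 without 1 rat. Of the 6 purinergic genes, 3 were called, 1 with all 24 libraries, 1 in the left CBs (Alpl), 1 in the right CBs (Entpd3), and 3 to 4 without 1 rat. The log2 fold change of Slc17a9 was 1.16 in the right CBs alone. The side difference of P2ry4 in WKY ran from -0.00259 (without WKY rat 34) to 0.45, and its interaction from -0.0747 (without WKY rat 33) to 0.37. With all 24 libraries, r was 0.32 for Slc17a9 and Plcd4 and 0.96, 0.41 and 0.29 for Slc6a4 with Tmem51, Tpbgl and Il17d. The cause of these shifts was not tested. The single sides hold fewer libraries, and the set of all 24 libraries differs from the main set only by the right CB of SH rat 34. Apart from the shifts given here and the block settings that follow, counts stayed within 1.5 times and directions held under the settings run.

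With the rat as a block, right over left in SHR gave 1 gene against 0. Slc17a9, P2ry4 and Slc6a4 had log2 fold changes of 0.10, 0.32 and -0.09 (edgeR adjusted p = 0.939, 0.816 and 0.888). In WKY the block gave -0.36, 0.25 and 0.14 (each with an edgeR adjusted p of 0.9997). Rat numbers shared by the strains do not pair the rats (correlation of deviations -0.22 to 0.05, 4 numbers). Using them as a replicate block gave 1568 genes between the strains, against 2863 in the 23 libraries and 1638 in the same rats with no block, a setting added after seeing the data, and log2 fold changes of 0.91, 0.61 and 0.75. Counts of 10 to 73 per library limit Slc17a9 and P2ry4.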
